A study of Mus musculus with 6 samples.

Results

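Genes that neurons use to build axons, release transmitter and specify their fate were followed in palatal shelves, dissected from E14.5 mouse embryos, in KO and in control animals. The 36 genes were chosen by name, as a list of pan-neuronal, sensory and neurogenic symbols, from the 55631 genes of the expression table. All 36 matched an Ensembl gene ID. Of these, 29 were above 0 in all 6 libraries, 6 were above 0 in some of them, and Neurod4 was listed at 0 in all. The 3 KO embryos carried the loxP-flanked p130Casfl/fl alleles and a CAG-Cre transgene, whose CAG promoter is active in most cell types. The 3 control embryos, titled WT, carried the same p130Casfl/fl alleles, and their labels name no Cre. The deleted protein, p130Cas, relays signals from integrins, and the series asks which transcripts change in shelves that lack it. No label tells whether the 3 embryos of a genotype were littermates. The p-values treat these embryos as independent, which could not be checked. They set a difference against the spread among these samples only, and part of that spread may be technical.

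The shelves are mostly mesenchyme under an epithelium, and most of the neurons that serve them have their cell bodies elsewhere. Sensory fibres come from the trigeminal ganglion, and parasympathetic fibres come from small ganglia of neural crest origin. An axon holds little of the RNA of its cell body, so neuronal transcripts in a dissected shelf can come from few cells. Outside neurons many of these genes are held down by the repressor REST.

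Values are FPKM, which the authors scaled by gene length and library size, and how many reads stand behind each is unknown. Each library had between 21500 and 21869 genes above 0. The deleted gene, Bcar1, ranged from 1.31 to 1.69 FPKM in KO libraries and from 1.80 to 2.09 FPKM in control libraries, a difference that says little of the deletion, since the sources used here do not name the deleted exons. The tissue label was set against 12 genes of palatal mesenchyme, which were above 0 in every library and summed to between 1284 and 1718 FPKM in KO and between 1370 and 1676 FPKM in control libraries. Col1a1, the main bone and connective tissue collagen, ranged from 678 to 974 FPKM in KO and from 714 to 1002 FPKM in control libraries.

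The neuronal genes were a small part of each library. Together the 36 genes summed to 281, 203 and 168 FPKM in KO replicates 1 to 3 and to 195, 232 and 296 FPKM in control replicates 1 to 3. That was between 0.0424% and 0.0729% of the FPKM of a KO library and between 0.0488% and 0.0727% of a control library. The groups overlapped: the lowest sum belonged to KO replicate 3 and the highest to control replicate 3, with KO replicate 1 close behind. Gap43, Uchl1, Tubb3 and Nsg1 had the highest levels, with means over the 6 libraries of 34.0, 32.7, 27.7 and 26.2 FPKM. Of the 36 genes, 25 had a mean of at least 1 FPKM and were tested, and each of the 25 reached that mean in both groups. Chgb lay just inside this filter, with a mean of 1.11 FPKM, and Syt1 just outside it, with a mean of 0.992 FPKM. The 11 genes not tested were Syt1, Rbfox3, Syt4, Gad1, Neurod2, Pou4f1, Slc17a6, Gad2, Neurod1, Neurog1 and Neurod4.

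**Figure D1:**
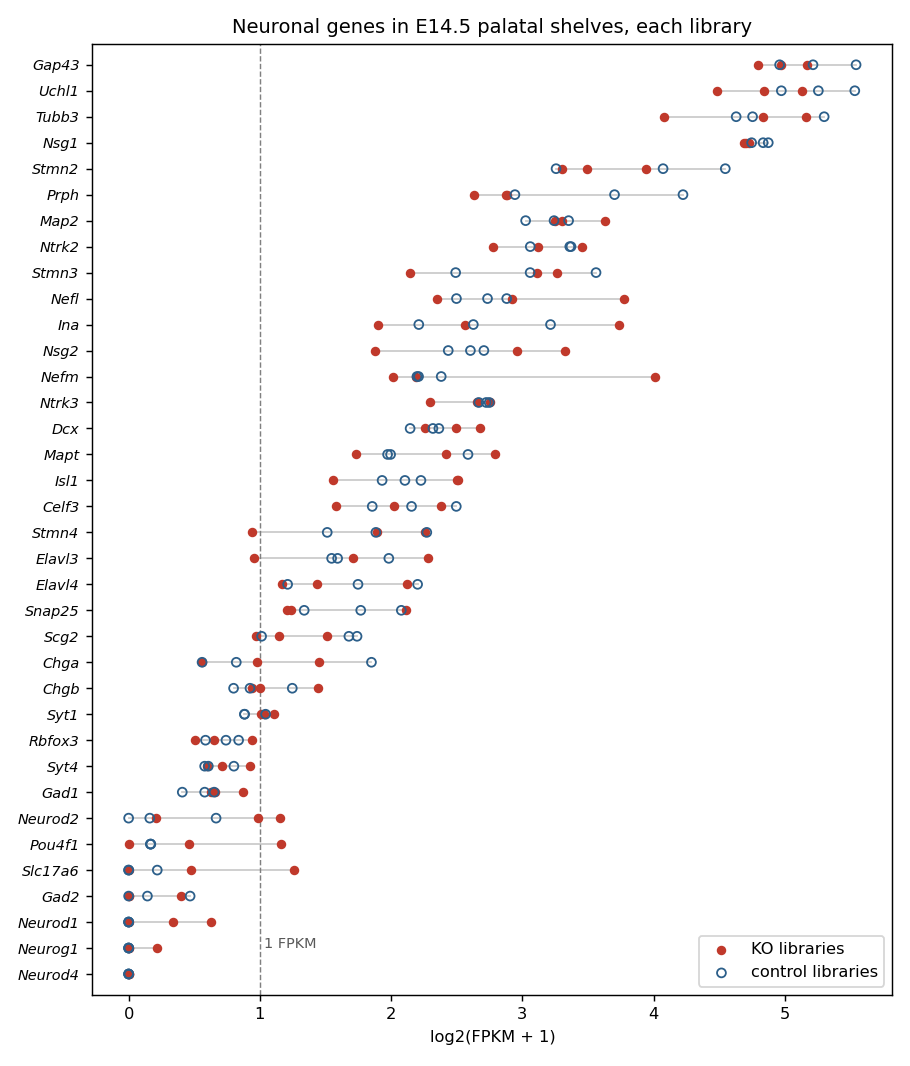
Level of each of the 36 neuronal genes as log2(FPKM + 1) on the x axis, genes sorted by mean on the y axis, with 1 filled red point per KO library and 1 open blue point per control library; grey lines span the 6 libraries. The points of both groups lie among each other for most genes, and Neurod4 is at 0 in all 6.

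No neuronal gene passed the test between KO and control shelves. In limma, 0 of 25 tested genes had an adjusted p under 0.05, where 0.333% of all 14714 tested genes did (0.326% higher and 0.0068% lower in KO). At an unadjusted p under 0.05 there were 2, Prph and Uchl1, where 4.01% of all tested genes were. The libraries of the groups did not overlap for 2 of the 25, Prph and Nsg1, where 9.06% of all tested genes did not overlap, and both were lower in KO, where 5.79% of all tested genes were. None of the 25 had all KO libraries above all controls, where 3.27% of all tested genes did. Below 0 were the log2 fold changes of 16 of the 25 genes, and 9 were above it, where 59.4% of all tested genes were below 0. The median log2 fold change was -0.14 over the 25 genes and -0.02 over all tested genes. The list median depended on single libraries. It was -0.34 without KO replicate 1, with 22 of 24 genes below 0. It was 0.14 without KO replicate 3, with 8 of 25 genes below 0, and 0.01 without control replicate 3, with 11 of 24 below 0. The list median itself was not tested. In bulk tissue, the number of neurons and the RNA per neuron cannot be told apart.

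**Figure D2:**
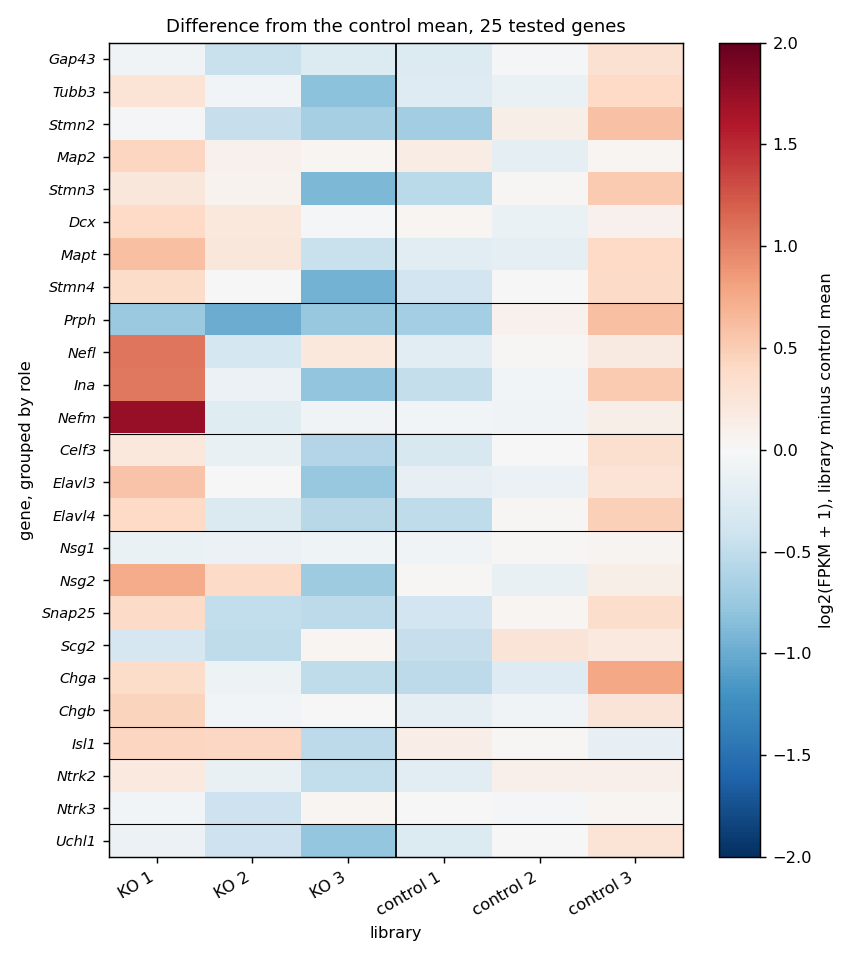
Colour shows log2(FPKM + 1) of each library minus the control mean for the 25 tested genes (y axis, grouped by role), with KO libraries left and control libraries right of the line (x axis). KO replicate 1 and control replicate 3 are mostly red and KO replicate 3 mostly blue; the list medians are 0.37, -0.12 and -0.52 in KO replicates 1 to 3 and -0.27, -0.01 and 0.28 in control replicates 1 to 3.

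The neuronal genes varied more between libraries of the same genotype than most genes did. The median within-group SD of log2(FPKM + 1) was 0.45 for the 25 genes and 0.12 for all tested genes, and 22 of the 25 lay above the upper quartile of all tested genes, 0.17. The highest library exceeded the lowest by a median of 2.54-fold for the 25 genes and by 1.28-fold for all tested genes above 0 in every library. KO replicate 1 was the highest library for 12 of the 25 genes and control replicate 3 for 11. KO replicate 3 was the lowest library for 13. Over all tested genes, KO replicate 1 was the highest library for 10.2% and control replicate 3 for 17.7%, and KO replicate 3 was the lowest for 17.0%. The other 3 were Nsg1, Dcx and Ntrk3, with SDs of 0.05, 0.169 and 0.174, and of these only Nsg1 lay below the median of all tested genes.

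**Figure D3:**
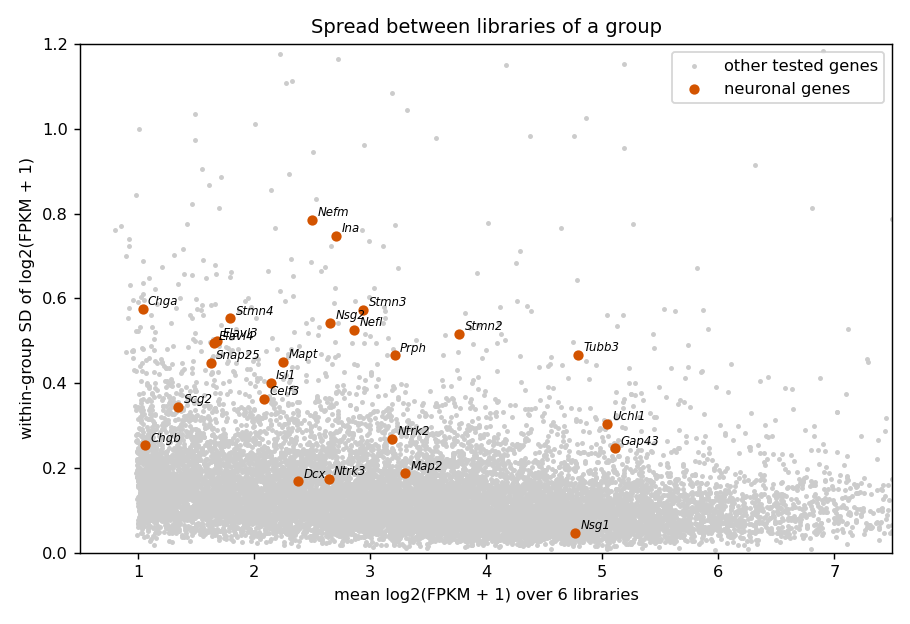
Within-group SD of log2(FPKM + 1) on the y axis against mean log2(FPKM + 1) on the x axis, with 1 point per tested gene; neuronal genes are orange and named, other genes grey, and 269 other genes lie outside the axes. Nefm and Ina stand highest among the neuronal genes, with SDs of 0.79 and 0.75, and Nsg1 lies lowest, at 0.05.

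Cytoskeletal genes of growing axons came first. Tubb3, the neuron-specific beta-tubulin, measured 34.9, 27.5 and 15.9 FPKM in KO replicates 1 to 3 and 23.7, 25.98 and 38.4 FPKM in control replicates 1 to 3. The groups overlapped, and the lowest and highest values differed by 2.41-fold. Its log2 fold change was -0.20 ± 0.28 (SE; limma, adjusted p = 1.00). Gap43, a growth cone protein, stood at 35.0, 26.7 and 30.3 FPKM in KO and at 30.1, 36.1 and 45.6 FPKM in control replicates 1 to 3. KO replicate 1 lay inside the control range, and the log2 fold change of -0.26 ± 0.15 (SE) did not pass (limma, adjusted p = 1.00). The stathmins bind free tubulin dimers, and Stmn2, Stmn3 and Stmn4 are their neuronal members. Stmn2 stood at 14.4, 10.2 and 8.85 FPKM in KO and at 8.56, 15.8 and 22.4 FPKM in control replicates 1 to 3. Control replicate 1 was the lowest library and control replicate 3 the highest, so the control libraries alone spanned the whole range. Stmn3 ranged from 3.42 to 8.62 FPKM in KO and from 4.62 to 10.8 FPKM in control libraries, and Stmn4 from 0.915 to 3.79 FPKM in KO and from 1.85 to 3.83 FPKM in control libraries. Both were lowest in KO replicate 3 and highest in control replicate 3.

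The microtubule-associated proteins were highest in another library than the stathmins. Dcx, the doublecortin of migrating young neurons, stood at 5.38, 4.63 and 3.78 FPKM in KO and at 3.99, 3.42 and 4.15 FPKM in control replicates 1 to 3. KO replicate 3 lay among the controls while the other KO libraries lay above them, and the log2 fold change was 0.20 ± 0.13 (SE; limma, adjusted p = 1.00). Map2, which binds microtubules in dendrites, ranged from 8.50 to 11.4 FPKM in KO and from 7.14 to 9.21 FPKM in control libraries. Mapt, the axonal protein tau, ranged from 2.33 to 5.92 FPKM in KO and from 2.93 to 5.002 FPKM in control libraries. KO replicate 1 was the highest library for all 3 of Dcx, Map2 and Mapt, and none passed.

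Neuronal intermediate filament genes had both the lowest and the highest log2 fold change of the list, and neither passed the test. Prph (ENSMUSG00000023484, chromosome 15 from 99055174 to 99058978 on the plus strand of GRCm38) encodes peripherin, the filament of neurons with axons outside the brain. It measured 6.38, 5.21 and 6.32 FPKM in KO replicates 1 to 3 and 6.69, 12.0 and 17.7 FPKM in control replicates 1 to 3. The groups did not overlap, but control replicate 1 was only just above the KO libraries, and the separation came from control replicates 2 and 3. Prph averaged 5.97 ± 0.660 FPKM in KO and 12.1 ± 5.496 FPKM in control libraries (SD, n = 3 each), a difference of -50.8%. The log2 fold change was -0.83 ± 0.28 (SE; limma, adjusted p = 1.00), and 275 tested genes had a smaller unadjusted p. By exact permutation (two-sided), p was 0.1, which no arrangement of the 6 libraries among 20 can undercut. Every gene whose groups do not overlap has this value, so it adds nothing to the missing overlap. Without control replicate 1 the log2 fold change was -1.17 (limma, adjusted p = 0.0764), and without control replicate 3 it was -0.53. The adjusted p of Prph ranged from 0.0764 to 1.00 over the alternatives.

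The neurofilament genes were highest in KO replicate 1. Nefm (ENSMUSG00000022054, chromosome 14 from 68082590 to 68124846 on the minus strand), the medium neurofilament subunit, measured 15.1, 3.04 and 3.57 FPKM in KO replicates 1 to 3 and 3.62, 3.58 and 4.21 FPKM in control replicates 1 to 3. KO replicate 1 was 3.59-fold above the highest other library, and the other KO libraries lay below all the controls. Nefl, the light subunit, stood at 12.7, 4.09 and 6.56 FPKM in KO and at 4.65, 5.65 and 6.36 FPKM in control replicates 1 to 3. Ina, the internexin that assembles with neurofilaments, stood at 12.3, 4.91 and 2.73 FPKM in KO and at 3.63, 5.17 and 8.28 FPKM in control replicates 1 to 3. KO replicate 1 was the highest library for all 3. The log2 fold changes were 0.48 ± 0.47 for Nefm, 0.31 ± 0.32 for Nefl and 0.05 ± 0.45 for Ina (SE), and none passed in limma. Without KO replicate 1 all 3 turned below 0, to -0.16 for Nefm, -0.070 for Nefl and -0.45 for Ina. The ratio of Nefm to Prph FPKM was 2.37, 0.584 and 0.564 in KO replicates 1 to 3 and 0.541, 0.298 and 0.238 in control replicates 1 to 3. KO replicate 1 thus held more Nefm than Prph and every other library less. Nefl and Nefm overlap on opposite strands over 1108 exon bases of the annotation, 32.8% of the exon bases of Nefl, and the strand setting of the counting is not given. Their reads cannot be told apart there.

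**Figure D4:**
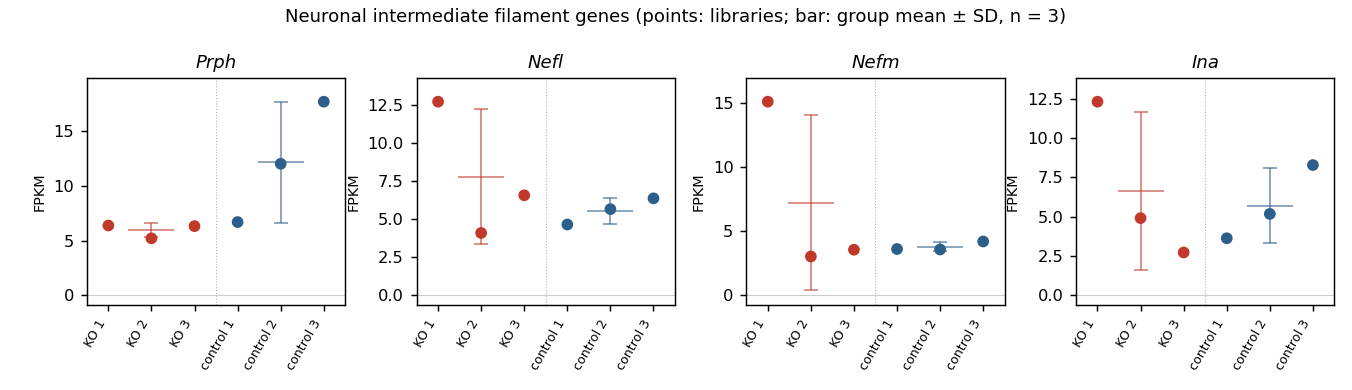
FPKM of the neuronal intermediate filament genes Prph, Nefl, Nefm and Ina (y axis) in each library (x axis), red for KO and blue for control, with group means and SDs as bars. Prph is high in control replicates 2 and 3, at 12.0 and 17.7 FPKM, and Nefm is high in KO replicate 1, at 15.1 FPKM.

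Neuronal RNA-binding proteins, which splice and stabilise neuronal messages, ranged widely in both groups. Elavl3 (HuC) stood at 3.85, 2.27 and 0.937 FPKM in KO and at 1.92, 2.02 and 2.95 FPKM in control replicates 1 to 3, so KO libraries held both the highest and the lowest value. Elavl4 (HuD) ranged from 1.25 to 3.36 FPKM in KO and from 1.32 to 3.60 FPKM in control libraries. Celf3, a splicing factor, ranged from 1.98 to 4.19 FPKM in KO and from 2.62 to 4.64 FPKM in control libraries. None of the 3 passed. Rbfox3, the NeuN antigen of mature neurons, was below the filter, between 0.417 and 0.921 FPKM in KO and between 0.501 and 0.788 FPKM in control libraries.

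Genes of vesicle release and of secretory granules were mostly low. Nsg1 was the exception in level and in evenness. It encodes an endosomal protein of neurons and stood at 24.8, 25.1 and 25.5 FPKM in KO and at 25.8, 27.5 and 28.3 FPKM in control replicates 1 to 3. The groups did not overlap, yet the means differed by only -7.74%, and limma gave a log2 fold change of -0.11 ± 0.06 (SE) with an adjusted p of 1.00. By exact permutation (two-sided), p was again 0.1, the value that the missing overlap fixes. Nsg1 shares 17.9% of its exon bases with Stx18 on the opposite strand. Its relative Nsg2 varied much more, at 9.03, 6.78 and 2.67 FPKM in KO and at 5.08, 4.41 and 5.53 FPKM in control replicates 1 to 3, with all control libraries inside the range of the KO libraries. Snap25, a SNARE protein of synaptic vesicle fusion, ranged from 1.31 to 3.32 FPKM in KO and from 1.53 to 3.22 FPKM in control libraries. The synaptotagmin genes Syt1 and Syt4 were near or below 1 FPKM. Syt1 lay between 1.01 and 1.16 FPKM in KO and between 0.843 and 1.06 FPKM in control libraries. Syt4 lay between 0.515 and 0.896 FPKM in KO and between 0.494 and 0.743 FPKM in control libraries. The granins package hormones and peptides. Scg2 ranged from 0.961 to 1.85 FPKM in KO and from 1.02 to 2.34 FPKM in control libraries, Chga from 0.476 to 1.73 FPKM in KO and from 0.474 to 2.605 FPKM in control libraries, and Chgb from 0.919 to 1.72 FPKM in KO and from 0.741 to 1.37 FPKM in control libraries. All granin ranges overlapped, and none passed.

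Neurogenic and sensory transcription factors were low or at 0, apart from Isl1. Isl1, a LIM homeodomain factor of sensory, autonomic and motor neurons that other embryonic tissues express too, stood at 4.71, 4.66 and 1.95 FPKM in KO and at 3.68, 3.30 and 2.81 FPKM in control replicates 1 to 3. All control libraries lay inside the KO range, and its log2 fold change of 0.10 ± 0.25 (SE) did not pass. Pou4f1 (Brn3a), which defines sensory neurons, stood at 1.23 and 0.373 FPKM in KO replicates 1 and 2, was listed at 0 in KO replicate 3, and lay between 0.122 and 0.124 FPKM in control libraries. Neurod1 was above 0 in KO replicates 1 and 2 only, at 0.541 and 0.264 FPKM, and was listed at 0 in the other 4 libraries. Neurod2 measured 1.22, 0.979 and 0.155 FPKM in KO replicates 1 to 3, 0.587 FPKM in control replicate 1 and 0.118 FPKM in control replicate 3, and was listed at 0 in control replicate 2. Neurog1, which starts sensory neurogenesis, was above 0 only in KO replicate 2, at 0.164 FPKM. Depending on the library, the smallest listed value above 0 was 0.1001 to 0.118 FPKM, and the values of Neurog1 in KO replicate 2, of Pou4f1 in the control libraries and of Neurod2 in KO replicate 3 and control replicate 3 lay near it. KO replicates 1 and 2 were the 2 highest libraries for Pou4f1, Neurod1 and Neurod2. KO replicate 3 was at 0 for Pou4f1 and Neurod1 and inside the control range for Neurod2.

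Transmitter genes were low too. Slc17a6, the vesicular glutamate transporter VGLUT2, stood at 1.39 and 0.390 FPKM in KO replicates 1 and 2 and at 0.163 FPKM in control replicate 1, and was listed at 0 in KO replicate 3 and in control replicates 2 and 3. Gad1, which makes GABA, ranged from 0.546 to 0.826 FPKM in KO and from 0.327 to 0.571 FPKM in control libraries. Gad2 was above 0 in KO replicate 2, at 0.321 FPKM, and in control replicates 1 and 2, at 0.384 and 0.104 FPKM. None of the 3 reached the filter.

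The neurotrophin receptors and Uchl1 completed the list. Ntrk2 (TrkB), the receptor of BDNF, ranged from 5.86 to 9.94 FPKM in KO and from 7.34 to 9.34 FPKM in control libraries. Ntrk3 (TrkC), the receptor of NT-3, ranged from 3.91 to 5.76 FPKM in KO and from 5.35 to 5.71 FPKM in control libraries. Neither passed. Uchl1 (ENSMUSG00000029223, chromosome 5 from 66676091 to 66687234 on the plus strand), a deubiquitinating enzyme abundant in neurons and known as PGP9.5, stood at 34.1, 27.6 and 21.3 FPKM in KO and at 30.4, 37.2 and 45.3 FPKM in control replicates 1 to 3. KO replicate 1 lay inside the control range and the other KO libraries below it. Uchl1 averaged 27.7 ± 6.38 FPKM in KO and 37.6 ± 7.45 FPKM in control libraries (SD, n = 3 each). In limma its log2 fold change was -0.44 ± 0.19 (SE), with an adjusted p of 1.00. Of its exon bases, 18.1% are shared with the antisense gene Uchl1os on the opposite strand. In all, 10 of the 36 genes share exon bases with another annotated gene.

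Promoters were read for the genes that the RefSeq table (GRCm38.p6) holds, 26 of 36 genes with 40 promoters, each from 250 bases before to 50 bases after a start. Both strands were searched for CAGCACC, from the left part of the RE1 element that REST binds. They were also searched for GGACAG, from the right part of that element. The E-box searched for was CAGATG, which neurogenic basic helix-loop-helix factors bind, also on both strands. On the gene's own strand alone, TATAAA was searched for. CAGCACC was in 10% of the 40 promoters and in 7.14% of all 32851 promoters, and GGACAG in 22.5% and 22.2%. CAGATG was in 30% of the 40 and in 17.2% of all, and TATAAA in 17.5% and 8.32%. Of the 40 promoters 7 are at Celf3, and several overlap each other, so 1 site can be counted more than once and these shares are descriptions. Counted by gene, CAGCACC was in 15.4% of the 26 genes and in 8.14% of all genes with a promoter, and GGACAG in 30.8% and 24.7%. By the same count CAGATG was in 30.8% and 19.2%, and TATAAA in 19.2% and 9.77%. Both RE1 parts occurred together in 2 promoters of the list, Scg2 and Tubb3, and in 1.73% of all promoters. The promoter of Prph is shown as that of the gene with the lowest fold change, and those of Tubb3 and Scg2 as the ones that hold both RE1 parts, with matches in capitals. They are at chr15:99054924-99055223 (plus strand), chr8:123411303-123411602 (plus strand) and chr1:79439977-79440276 (minus strand), each written in the direction of the gene.
Prph: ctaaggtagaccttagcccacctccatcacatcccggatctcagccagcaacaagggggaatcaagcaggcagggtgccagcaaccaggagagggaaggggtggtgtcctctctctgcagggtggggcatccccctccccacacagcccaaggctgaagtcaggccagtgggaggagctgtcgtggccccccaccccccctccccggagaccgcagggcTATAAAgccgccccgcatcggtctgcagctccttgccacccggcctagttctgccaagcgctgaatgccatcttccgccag
Tubb3: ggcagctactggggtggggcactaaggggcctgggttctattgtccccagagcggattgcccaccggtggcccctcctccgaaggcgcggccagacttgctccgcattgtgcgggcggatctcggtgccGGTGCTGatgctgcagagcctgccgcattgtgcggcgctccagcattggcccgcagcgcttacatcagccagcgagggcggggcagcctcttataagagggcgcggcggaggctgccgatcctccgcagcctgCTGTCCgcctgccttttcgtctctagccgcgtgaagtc
Scg2: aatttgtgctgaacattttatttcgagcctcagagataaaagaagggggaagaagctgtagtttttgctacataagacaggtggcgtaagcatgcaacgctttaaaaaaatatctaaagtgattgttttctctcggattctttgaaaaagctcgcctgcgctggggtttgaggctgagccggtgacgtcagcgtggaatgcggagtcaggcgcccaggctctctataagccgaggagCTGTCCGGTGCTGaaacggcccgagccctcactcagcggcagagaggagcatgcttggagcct
The Prph promoter held TATAAA with its first base 31 bases before the start and none of the other motifs. In Tubb3 the RE1 parts lay 121 bases before and 13 bases after the start, and in Scg2 they adjoined, at 13 and 7 bases before the start. Tubb3 was lowest in KO replicate 3, and Scg2 was lowest in KO replicate 2. Whether REST binds either promoter was not tested.

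Markers of separate neuron types were then set beside these genes, each list with 0 called genes in either direction. Autonomic neuron genes had their highest sums in control replicates 2 and 3. The 17 genes of that list summed to 20.9, 19.3 and 16.8 FPKM in KO replicates 1 to 3 and to 18.7, 27.4 and 37.7 FPKM in control replicates 1 to 3, and of its 10 tested genes 8 had a log2 fold change below 0, with a median of -0.34. Phox2a, a homeodomain factor of autonomic neurons, stood at 2.11, 0.926 and 1.31 FPKM in KO and at 1.10, 3.96 and 5.98 FPKM in control replicates 1 to 3. Vip, a peptide of parasympathetic neurons, stood at 0.569, 0.631 and 1.08 FPKM in KO and at 0.683, 1.92 and 3.28 FPKM in control replicates 1 to 3. Hand2 and Slc18a3, named after their values were seen, had the same 2 highest libraries. Slc18a3, the vesicular acetylcholine transporter, stood at 0.421, 0.301 and 0.393 FPKM in KO and at 0.262, 1.05 and 1.72 FPKM in control replicates 1 to 3. Other genes of the list differed from these, and were also named after their values were seen. Slc5a7, the choline transporter of cholinergic neurons, stood at 1.91, 2.62 and 3.14 FPKM in KO and at 3.42, 1.64 and 1.66 FPKM in control replicates 1 to 3. Slc18a2, the vesicular monoamine transporter, was highest in control replicate 1, at 2.16 FPKM. Control replicate 1 lay inside or below the KO range for Phox2a, Vip, Hand2 and Slc18a3, and for Prph just above it. The log2 fold change was -0.80 ± 0.41 for Phox2a and -0.66 ± 0.31 for Vip (SE; limma, adjusted p = 1.00 for both). Gata3 had a log2 fold change above 0, with values from 1.43 to 2.56 FPKM in KO and from 1.09 to 1.60 FPKM in control libraries. Ddc ranged from 2.59 to 3.03 FPKM in KO and from 2.31 to 4.72 FPKM in control libraries, and Npy from 0.606 to 3.64 FPKM in KO and from 1.93 to 4.56 FPKM in control libraries. Slc18a1 and Insm2 were at 0 in all libraries, and Dbh, an enzyme of noradrenaline synthesis, was between 0.235 and 0.488 FPKM in KO and between 0.182 and 0.454 FPKM in control libraries. The part of autonomic neurons in the Prph values was not tested.

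Sensory neuron genes summed to between 102 and 112 FPKM in KO and between 108 and 111 FPKM in control libraries over 22 genes, part of it from Eya2, which muscle expresses too, at 14.4 to 23.7 FPKM in KO and 17.97 to 22.4 FPKM in control libraries. Of its 9 tested genes 6 were below 0, with a median log2 fold change of -0.14. Trpv1, Trpm8, Scn10a and Pou4f3 were at 0 in all libraries. Tac1, the substance P precursor, stood at 2.07, 0.983 and 1.78 FPKM in KO and at 2.40, 2.55 and 2.05 FPKM in control replicates 1 to 3. Piezo2, a touch channel, ranged from 8.39 to 9.79 FPKM in KO and from 9.93 to 11.5 FPKM in control libraries, without overlap and without passing. Of all tested genes, 5.79% had all KO libraries below all controls. Ret ranged from 0.842 to 2.33 FPKM in KO and from 1.38 to 2.54 FPKM in control libraries. P2rx3, an ATP-gated channel of sensory neurons, named after its values were seen, was high in KO replicate 1. It stood at 2.38, 0.627 and 0.467 FPKM in KO and at 0.606, 0.765 and 1.09 FPKM in control replicates 1 to 3.

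Genes of brain and neural tube summed to between 133 and 163 FPKM in KO and between 131 and 164 FPKM in control libraries over 22 genes. Most of that sum came from Lhx8 and Lhx6, which palatal mesenchyme uses as well. Of its 9 tested genes 5 were below 0, with a median of -0.04. Neurod6 and Tbr1, cortical neuron genes named after their values were seen, were highest in KO replicate 2, at 1.33 and 0.814 FPKM. Neurod6 was at 0.675 FPKM and Tbr1 at 0.420 FPKM in control replicate 1. Olfactory neuron genes summed to between 261 and 276 FPKM in KO and between 261 and 309 FPKM in control libraries over 18 genes, most of it from Gnai2, a G protein subunit of many cell types. Omp, which marks mature olfactory neurons, was between 0.135 and 0.290 FPKM in KO and between 0.126 and 0.272 FPKM in control libraries, and Cnga4, Rtp1, Rtp2 and Trpc2 were at 0 in all libraries. Of its 9 tested genes 5 were below 0, with a median of -0.06. Lhx2 was at 2.01, 1.97 and 0.895 FPKM in KO and at 1.41, 0.514 and 0.417 FPKM in the 3 control libraries. Gng8 was at 11.9, 10.1 and 12.7 FPKM in KO and at 14.54, 11.8 and 15.9 FPKM in control replicates 1 to 3. Neither passed.

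**Figure D5:**
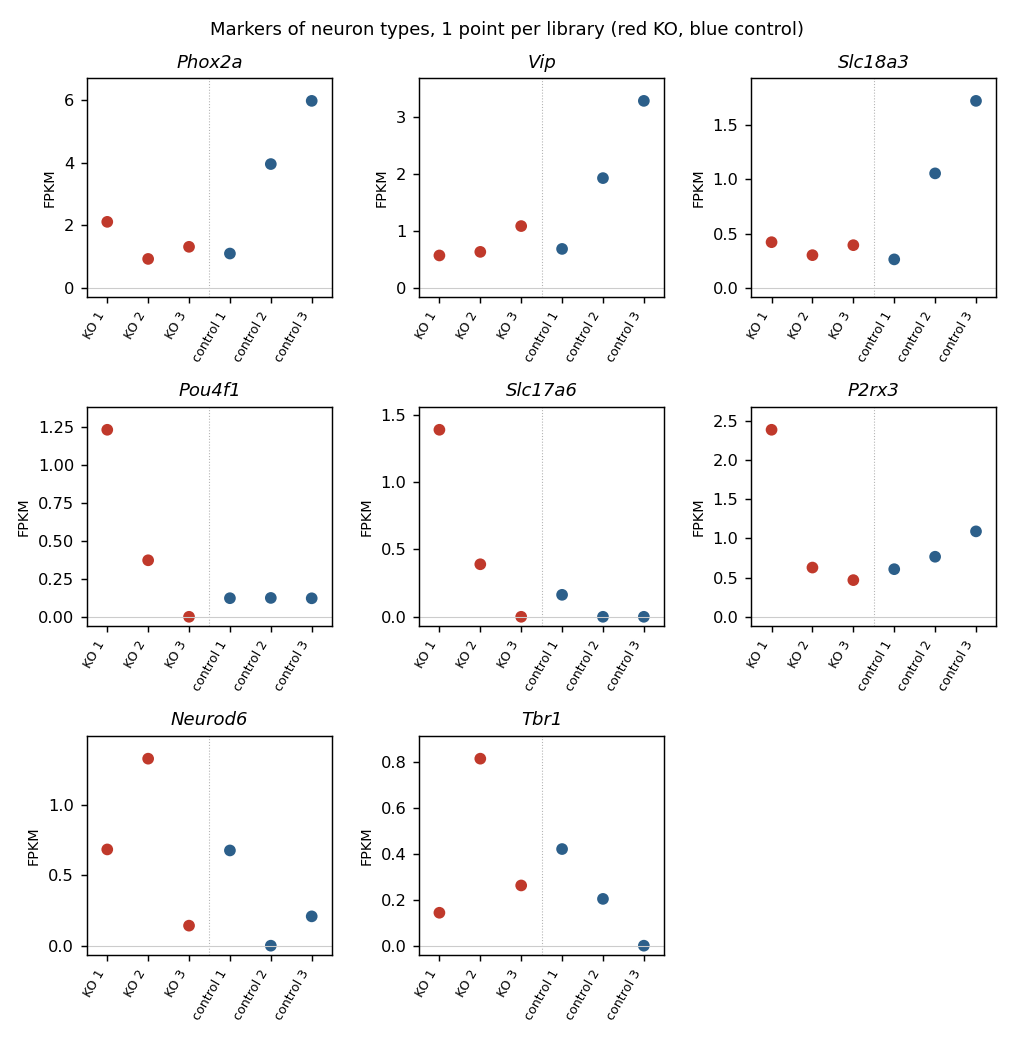
FPKM (y axis) of markers of autonomic neurons (top row), sensory and glutamatergic neurons (middle row) and forebrain neurons (bottom row) in each library (x axis), 1 point per library, red for KO and blue for control. The top row is highest in control replicate 3, with Phox2a at 5.98 FPKM, the middle row in KO replicate 1, with Slc17a6 at 1.39 FPKM, and the bottom row in KO replicate 2, with Neurod6 at 1.33 FPKM. Slc18a3, P2rx3, Neurod6 and Tbr1 were chosen after their values were seen: over the tested genes of each list, KO replicate 1 was the highest library for 1 of 9 sensory genes and KO replicate 2 for 1 of 9 brain genes.

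A further 64 pan-neuronal genes, of which 48 were tested, showed the same high and low libraries. Of these 48, control replicate 3 was the highest library for 21 and KO replicate 1 for 17, and KO replicate 3 was the lowest for 23. No gene was called in either direction, 36 of 48 were below 0, and the median log2 fold change was -0.08. Stmn1, the stathmin of dividing cells as well as neurons, ranged from 291 to 356 FPKM in KO and from 306 to 338 FPKM in control libraries. Tubb2b, a tubulin of young neurons, ranged from 54.3 to 83.5 FPKM in KO and from 69.8 to 90.8 FPKM in control libraries. The smallest p belonged to Rbfox1, a splicing factor of neurons and muscle, at 2.43, 2.31 and 2.09 FPKM in KO and at 2.39, 3.54 and 3.47 FPKM in control replicates 1 to 3. Stx1a, a SNARE protein, ranged from 10.04 to 10.9 FPKM in KO and from 11.4 to 12.5 FPKM in control libraries, without overlap. Mllt11 ranged from 11.9 to 14.2 FPKM in KO and from 14.6 to 16.5 FPKM in control libraries, without overlap. Cplx2, a complexin, ranged from 15.6 to 18.3 FPKM in KO and from 18.4 to 19.4 FPKM in control libraries, also without overlap. Of all tested genes, 5.79% had all KO libraries below all controls, and 3.27% had them above. Rbfox2, Celf5 and Kif3c, named after their values were seen, did not overlap either. Rbfox2 was lower in KO, with a log2 fold change of -0.13. Celf5 and Kif3c were higher in KO, with log2 fold changes of 0.14 and 0.096. None of these passed (limma, adjusted p = 1.00 for each).

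Schwann cells wrap the same nerves, and their genes had a narrower spread than the neuronal ones. The 18 glial genes summed to 139, 109 and 123 FPKM in KO and to 119, 121 and 138 FPKM in control replicates 1 to 3, and all were above 0 in every library. Of 13 tested, 0 were called and 10 were below 0, with a median log2 fold change of -0.08. Their median within-group SD was 0.18, against 0.45 for the 25 neuronal genes. The contrast held for the 25 genes and for the autonomic list, while the other neuron lists lay nearer to the glial value. Their medians were 0.21 for the further pan-neuronal, 0.25 for sensory, 0.21 for brain and 0.18 for olfactory genes. The autonomic genes had 0.43. Fabp7, a fatty acid binding protein of glial and neural precursors, stood out in KO replicate 1. It was at 19.8, 10.9 and 4.82 FPKM in KO and at 7.01, 5.74 and 8.199 FPKM in control replicates 1 to 3. S100b ranged from 1.44 to 3.86 FPKM in KO and from 2.39 to 4.32 FPKM in control libraries, and Mbp from 2.55 to 3.69 FPKM in KO and from 3.42 to 3.99 FPKM in control libraries. Pmp22 and Ngfr had the highest levels, and neither passed. Pmp22 ranged from 33.5 to 41.5 FPKM in KO and from 36.6 to 47.7 FPKM in control libraries, and Ngfr from 26.8 to 36.7 FPKM in KO and from 32.5 to 35.4 FPKM in control libraries.

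Genes that guide and feed axons, many of them made by the mesenchyme, did not pass either. Of 29 tested neurotrophin and guidance genes, 0 were called, 16 were above 0 and 13 below, with a median log2 fold change of 0.03. Robo3, a receptor of axons that cross the midline, was at 4.57 FPKM in KO replicate 1, at 0.589 and 0.498 FPKM in KO replicates 2 and 3, and between 0.195 and 0.384 FPKM in control libraries. The groups did not overlap, with all KO libraries above all controls, as for 3.27% of all tested genes. The log2 fold change of 0.89 ± 0.46 (SE) did not pass, with KO replicate 1 far above the rest (limma, adjusted p = 1.00). Efna5, an ephrin that repels axons, ranged from 17.6 to 19.5 FPKM in KO and from 19.8 to 20.9 FPKM in control libraries. Its groups did not overlap either, with all KO libraries below all controls, as for 5.79% of all tested genes. Unc5b, a netrin receptor, ranged from 11.02 to 13.6 FPKM in KO and from 12.2 to 15.8 FPKM in control libraries. Sema3e ranged from 3.55 to 4.10 FPKM in KO and from 2.67 to 3.82 FPKM in control libraries. Sema3f and Nrp2 had the highest levels, Sema3f between 48.9 and 54.0 FPKM in KO and between 49.6 and 54.9 FPKM in control libraries, and Nrp2 between 35.0 and 47.3 FPKM in KO and between 37.4 and 40.7 FPKM in control libraries. The repressor Rest itself was at 16.6, 13.0 and 16.7 FPKM in KO and at 17.2, 13.8 and 13.6 FPKM in control replicates 1 to 3. Of the 8 genes of its complex 0 were called, with a median log2 fold change of -0.0020. Its deacetylase Hdac1 was between 64.7 and 68.2 FPKM in KO and between 63.1 and 70.1 FPKM in control libraries.

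Genes of other tissues of the dissection varied between libraries as well. Cartilage genes summed to 893, 213 and 212 FPKM in KO and to 433, 371 and 751 FPKM in control replicates 1 to 3 over 20 genes, so KO replicate 1 and control replicate 3 were again the highest. Of these 20, KO replicate 1 was the highest library for 15 and KO replicate 3 the lowest for 13, as it was the lowest for 13 of the 25 neuronal genes. Skeletal muscle genes summed to 484, 737 and 545 FPKM in KO and to 490, 740 and 866 FPKM in control replicates 1 to 3 over 22 genes. Oral epithelium genes summed to 639, 882 and 507 FPKM in KO and to 654, 737 and 583 FPKM in control replicates 1 to 3 over 19 genes. None of these lists, nor palatal mesenchyme or endothelium, held a called gene, and their median log2 fold changes were -0.75 for cartilage, -0.21 for muscle, 0.01 for epithelium, 0.06 for mesenchyme and -0.19 for endothelium. Leukocyte genes summed to 147, 179 and 130 FPKM in KO and to 92.8, 99.0 and 114 FPKM in control replicates 1 to 3, with 0 called. Their median log2 fold change was 0.45, with 15 of 15 tested genes above 0. Of the 15, 12 had an unadjusted p under 0.05 in limma, where 4.01% of all tested genes did. So did 4 of 13 endothelial, 2 of 20 cartilage and 1 of 21 muscle genes. None of the tested epithelial or mesenchymal genes did. Below 0 were 13 of 13 endothelial, 21 of 21 muscle and 17 of 20 cartilage genes, where 59.4% of all tested genes were. In these libraries the test did call other genes: of 17 interferon-response genes, 13 were higher in KO, where 0.326% of all tested genes were, with a median log2 fold change of 1.66, though that list was written with these results known. Whether the makeup of the dissected tissue accounts for the neuronal values was not tested.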

How the data were processed

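RNA of palatal shelves was measured in 3 KO and 3 control libraries, grouped by title. The deposited values are FPKM made by the authors, in 1 table with 55631 genes; its name is the source of the unit. Build mm10 and DESeq2 1.5.2 are named in the submitters' processing notes. Aligner, counter, annotation and strand setting: not given in the sources used here. No count model was run on FPKM, and depth is unknown.

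Of the gene IDs, 50824 were paired with a symbol, and coordinates come from GENCODE (GRCm38); 210 tested genes stayed unnamed. On log2(FPKM + 1), which understates changes of low genes, limma 3.58.1 (R 4.3.3, eBayes with trend) compared genotypes over the 14714 genes averaging at least 1 FPKM, two-sided, with Benjamini-Hochberg adjustment over all of them and a threshold of 0.05. Correlations between libraries were 0.982 to 0.993.

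The 36 genes and the 15 other lists were chosen with earlier results of these data known. Full values were given for Prph, for genes whose groups do not overlap, and for the 4 genes with the smallest p and the 4 with the highest mean. In other lists the 4 smallest p and 2 highest means were chosen; genes beyond this rule were named after their values were seen, TATAAA was searched for likewise, and RefSeq proteins were not used here. Some genes of these lists, of which a few met the rule, are not reported here. Alternatives were pseudocounts of 0.1 and 0.01, no filter and filters at 0.1 and 5 FPKM, quantile, median-of-ratios and TPM scaling, eBayes without trend or robust, weights per library, a block for the replicate number, and each library left out.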

Additional observations from a re-analysis of the deposited data

How the results depend on the processing

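No neuronal gene was called under any of the 18 alternatives, and the smallest adjusted p in limma was 0.0764, for Prph without control replicate 1. Over all genes, the calls numbered 49, with 33 to 69 under the alternatives. The median log2 fold change of the neuronal genes, -0.14, lay between -0.34 and 0.14 when 1 library was left out. With the replicate number as a replicate block it was -0.14, with 0 neuronal genes and 42 of all genes called. Same-numbered KO and control libraries deviated with correlations of 0.02, 0.31 and -0.24, so the numbers were not taken as pairs, and not every library correlated best with its own number. With library weights the median was 0.01, with 7 neuronal genes at an unadjusted p under 0.05, and the log2 fold changes of Snap25, Elavl4, Chga and Elavl3 turned to 0.011, 0.031, 0.13 and 0.22. Leaving out 1 library turned the sign of 14 genes at least once. Their lowest and highest log2 fold changes were -0.16 and 0.84 for Nefm, -0.070 and 0.64 for Nefl, -0.45 and 0.46 for Ina, -0.31 and 0.022 for Ntrk2, -0.37 and 0.028 for Celf3, -0.44 and 0.10 for Tubb3, -0.47 and 0.19 for Stmn4, -0.47 and 0.15 for Stmn3, -0.42 and 0.10 for Elavl4, -0.11 and 0.42 for Mapt, -0.16 and 0.56 for Nsg2, -0.057 and 0.42 for Isl1, -0.34 and 0.14 for Chga, and -0.37 and 0.29 for Elavl3. The cause was not tested. Prph stayed below 0 throughout, between -1.17 and -0.53. Without read counts, a value of 0 and a low value cannot be given a counting error.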
